A study of Mus musculus with 6 samples.

Results

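The genes described here are the histone deacetylases, sirtuins, histone methyltransferases and histone demethylases that could be picked out by symbol on a mouse whole-genome expression array: every gene named Hdac, Sirt, Kdm, Smyd, Setd or Prdm with a number, Ezh1, Ezh2 and the Suv genes. They comprised 67 genes with 98 probes, among 36406 gene names and 55681 probes on the array. The choice rested on names alone and used no measured value. Of the 67 genes, 60 (86 probes) were bright enough to be tested.

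RNA came from primary myoblasts, the cells that build and repair muscle fibres, sorted by flow cytometry from skeletal muscle of 3-month-old C57BL/6 mice labelled male and grown in DMEM with fetal bovine serum. One group of 3 arrays held cells given TGFb, a secreted growth factor central to fibrosis, for 4 days, and the other group of 3 held cells kept in the same medium without it; the labels name no TGFb isoform or dose and no gene alteration in either group. Both groups are cell cultures, so other muscle cell types are present only as far as they passed the sort. The labels call the 3 samples of a group biological replicates, but the deposited files give untreated replicates 1 and 2 the same number, so p-values may measure a spread that is partly technical.

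The labels were set against defining genes first. Myod1, Pax7 and Myog, transcription factors of the muscle lineage, were well above background on all 6 arrays. The cells are labelled male, but 4 of 5 probes of the 4 Y-linked genes Kdm5d (a member, an H3K4 demethylase), Uty, Ddx3y and Eif2s3y were below background on all 6 arrays, and the fifth, 1 of the probes of Uty, was above it on TGFb replicate 2 only. Xist, the RNA of the inactive X chromosome, was well above background on all 6 arrays, with log2 values between -0.46 and 1.38. These values go against the labelled sex in both groups alike; the genes beside Kdm5d were chosen after its values had been seen.

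Histone deacetylases remove acetyl groups from lysines of histone tails, which generally closes chromatin to transcription. Methyltransferases add methyl groups to histone lysines and demethylases take them off, and the effect depends on the lysine: methylation of H3K9 or H3K27 marks silenced chromatin, whereas methylation of H3K4 or H3K36 marks active genes. In muscle precursors several of these enzymes are known to restrain the differentiation factors MyoD and MEF2 until myoblasts leave the cell cycle and fuse, and some Smyd and Prdm genes are themselves part of the muscle and fat lineage programmes.

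In the fit that accounts for the day of scanning, TGFb-treated and untreated myoblasts differed by at most 0.5 log2 units in 51 of the 60 tested genes. The median size of difference in that fit was 0.28, against 0.34 over all genes. The muscle-restricted methyltransferase gene Smyd1 fell 3.49-fold and the class IV deacetylase gene Hdac11 fell 1.96-fold, both in the fit that accounts for the day of scanning. Neither passed without that term (limma adjusted p = 0.119 and 0.487). With that term 10.3% of all genes passed, against 3.33% of the members. The remaining tested genes passed in neither fit. Among them were the class I deacetylases, the sirtuins, the H3K27 methyltransferases Ezh1 and Ezh2 and the H3K4 demethylase Kdm1a. Prdm1, a zinc-finger repressor, showed the largest difference of all members, 4.98-fold higher, which did not pass.

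Tests were made with limma over 21863 genes, with Benjamini-Hochberg adjustment over all of them and a threshold of 0.05. Values are log2 intensities relative to the 75th percentile of the same array, and differences are TGFb minus untreated, with standard errors. With group as the only term, 1.42% of all genes passed, and 0 of the 60 members did. An unadjusted p below 0.05 was found for 3 members (Smyd1, Hdac9 and Suv39h1), beside 2535 of the 21863 genes. The arrays were scanned on 2 days, and each day held both groups: TGFb replicate 1 with untreated replicates 1 and 2 on day 1, and TGFb replicates 2 and 3 with untreated replicate 3 on day 2. With scan day as a term, 10.3% of all genes passed (5.62% fell), against 2 of 60 members (3.33%), both of which fell. The share of members that passed was thus below that of all genes, of which 2244 passed. Under that fit 8 of 60 members had an unadjusted p below 0.05, beside 5965 of the 21863 genes. The unadjusted counts given below by class or list are to be read beside those of all genes. Differences given without a further word are from the fit that includes scan day. There were 4 slides, and 2 of them carried an array of either group; with slide as a random block in place of scan day, 7 members passed (Hdac11, Hdac9, Setd7, Sirt2 and Smyd1 fell and Suv39h1 rose; the last was Prdm16, which was near background on 2 untreated arrays), beside 19.8% of all genes. In the scan-day fit 0 members passed when any untreated replicate was left out (2 to 6 at an unadjusted p below 0.05, beside 3755 to 4181 of all genes).

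Smyd1 encodes a SET- and MYND-domain methyltransferase of heart and skeletal muscle that is required for sarcomere assembly. Its brighter probe (mm9, chr6:71165337-71165396, minus strand) read 0.34, -1.19 and -0.95 in TGFb replicates 1 to 3 and 1.58, 1.49 and 1.34 in untreated replicates 1 to 3. Every TGFb array was below every untreated array, and the untreated arrays lay close together on both scan days. The log2 difference was -2.07 ± 0.45 (SE, n = 3 per group; limma adjusted p = 0.119) with group alone and -1.80 ± 0.30 (limma adjusted p = 0.024; 95% interval -2.56 to -1.04) with scan day as a term. The day 1 arrays differed by -1.20 and the day 2 arrays by -2.41, and the 2 slides that held both groups gave -1.15 and -2.53. A second probe lies far from the first (mm9, chr6:71212063-71212122) and read -1.70, -1.46 and -1.30 after TGFb against 0.47, 0.02 and -0.59 in untreated cells, again without overlap. Its difference was -1.37 ± 0.31, with an adjusted p of 0.0611 when limma was fitted to every probe singly. The call of the brighter probe was lost when TGFb replicate 2 (adjusted p = 0.0555) or any 1 of the untreated replicates was left out (adjusted p = 0.0803, 0.0719 and 0.099 without replicates 1, 2 and 3).

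Hdac11 encodes the sole class IV deacetylase, an enzyme with strong activity on long-chain fatty acyl groups as well. Its single probe (mm9, chr6:91124085-91124144, plus strand) read -0.59, -2.54 and -1.99 after TGFb and 0.45, 0.34 and -1.31 in untreated cells. The groups overlapped across days, both reading lower on day 2, but on each day the TGFb arrays were the lower ones. The difference was -1.53 ± 0.70 (limma adjusted p = 0.487) with group alone and -0.97 ± 0.20 (limma adjusted p = 0.0411; 95% interval -1.47 to -0.47) with scan day as a term. The 2 days gave nearly the same size, -0.98 and -0.96; the 2 slides with both groups gave -0.93 and -1.23. This call held only without TGFb replicate 3; leaving out any other array gave adjusted p-values between 0.052 (without TGFb replicate 2) and 0.23 (without untreated replicate 3).

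**Figure D1:**
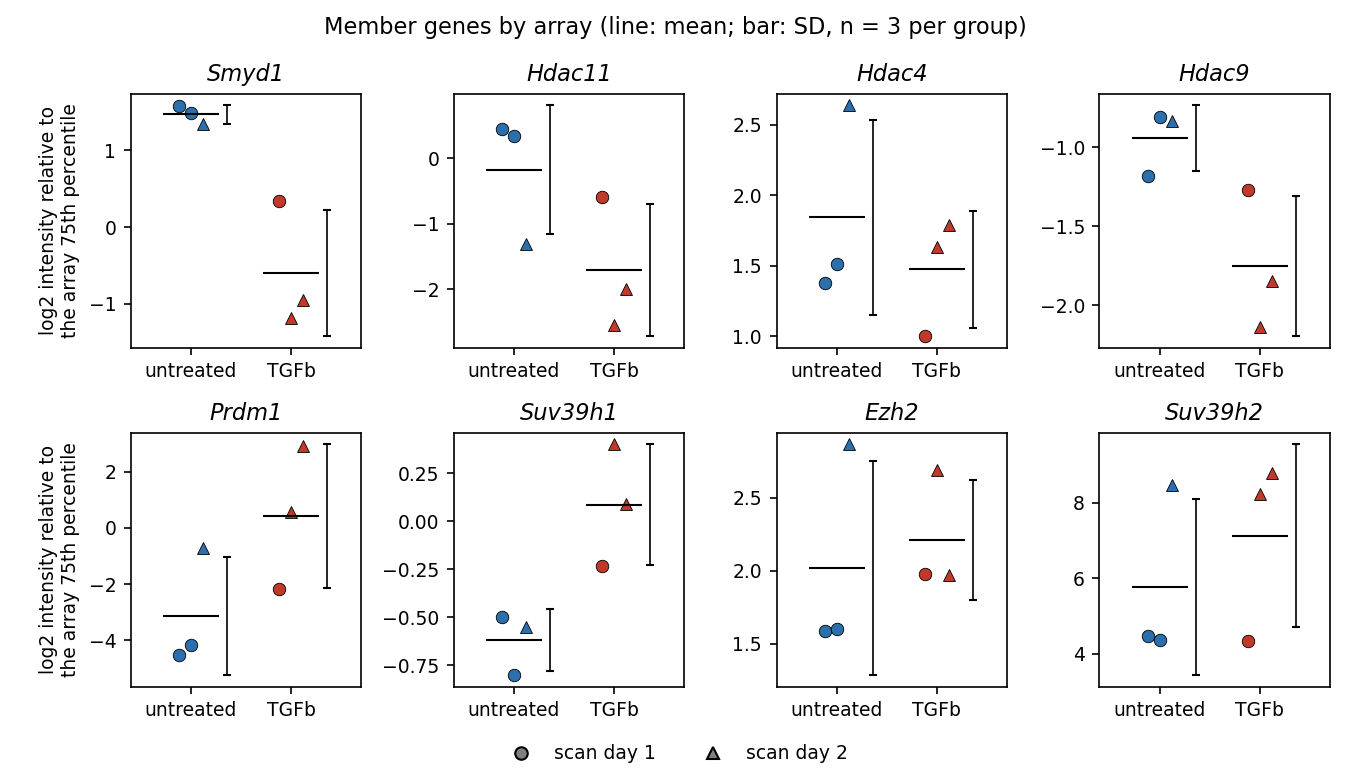
Log2 intensity relative to the array's 75th percentile for 8 member genes, 1 point per array, circles for scan day 1 and triangles for day 2. Lines are group means and bars are SD (n = 3 per group); Smyd1, Hdac9 and Suv39h1 separate the groups on all arrays, whereas Suv39h2 separates the scan days (4.34 to 4.48 on day 1 and 8.24 to 8.79 on day 2).

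The 250 bases upstream of the RefSeq start sites of these 2 genes are shown because they were the members that fell; the sequences are those of RefSeq. Coordinates refer to GRCm38.p6, Smyd1 at chr6:71262282-71262531 on the minus strand and Hdac11 at chr6:91156565-91156814 on the plus strand. Each is written 5′ to 3′ on the gene's strand, with capitals for CAGCTG, an E-box sequence that MyoD can bind, and for CAGAC or its reverse complement GTCTG, a short sequence that SMAD proteins can bind.
Smyd1: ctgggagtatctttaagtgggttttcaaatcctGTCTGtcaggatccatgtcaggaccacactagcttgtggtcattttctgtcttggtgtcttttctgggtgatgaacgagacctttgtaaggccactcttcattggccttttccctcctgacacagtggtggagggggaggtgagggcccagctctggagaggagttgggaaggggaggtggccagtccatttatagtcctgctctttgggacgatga
Hdac11: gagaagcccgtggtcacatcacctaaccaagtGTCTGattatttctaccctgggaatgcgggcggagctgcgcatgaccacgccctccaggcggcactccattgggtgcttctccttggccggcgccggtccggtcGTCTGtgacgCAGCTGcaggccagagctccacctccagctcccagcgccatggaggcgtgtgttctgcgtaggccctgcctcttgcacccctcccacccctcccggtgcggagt

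The Smyd1 window held 1 match to CAGAC, 217 bases upstream of the start, and no CAGCTG. The Hdac11 window held CAGCTG at 104 bases and CAGAC at 218 and 114 bases upstream. Such matches are frequent: searched on both strands, CAGCTG was in 13% and CAGAC in 42.2% of 32851 promoters of the same length, and GTCTAGAC, a longer SMAD-binding sequence that contains neither CAGAC nor GTCTG, was in 0.167%. Of 75 promoters of 54 member genes, 12 (16%) held CAGCTG, 26 (34.7%) held CAGAC and 1 (1.33%) held GTCTAGAC. Promoters on chromosome 18, where Hdac3, Kdm3b and Prdm6 lie, were left out of the member counts only. A match describes the letters in the window and nothing about binding.

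Among the class I deacetylases, of which Hdac1, Hdac2 and Hdac3 are catalytic subunits of corepressor complexes such as NuRD, Sin3, CoREST and NCoR, 0 of 4 passed in either limma fit, and 0 had an unadjusted p below 0.05. Hdac1 read 4.25, 5.02 and 5.43 after TGFb against 3.73, 3.73 and 4.93, which is higher on each day (0.52 and 0.30) but overlaps across days. Its difference with scan day as a term was 0.41 ± 0.18 (limma adjusted p = 0.21; 95% interval -0.03 to 0.85). Hdac2 had a difference of 0.36 ± 0.29 and Hdac3, the NCoR deacetylase, of -0.20 ± 0.27, and both changed sign between days. Hdac8, named to complete the class, had the value 0.48 ± 0.32. Its other, dimmer probe had 0.67 ± 0.20 (limma adjusted p = 0.116 with each probe fitted singly) and was higher on both days (0.39 and 0.94).

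The class IIa deacetylases bind MEF2 and are exported from the nucleus when muscle differentiates; 0 of 4 passed (2 had an unadjusted p below 0.05 in limma with scan day), and 3 of 4 had a value below 0 in each fit. Hdac4 read 1.00, 1.63 and 1.79 after TGFb and 1.38, 1.51 and 2.64 in untreated cells. On each scan day the TGFb arrays were lower, by -0.44 and -0.94, although the groups overlapped across days. The difference with scan day as a term was -0.69 ± 0.18 (limma adjusted p = 0.0727; 95% interval -1.14 to -0.24), against -0.37 ± 0.44 (adjusted p = 0.783) with group alone. Hdac9 read -1.27, -2.14 and -1.85 against -1.18, -0.81 and -0.83, so that each TGFb array lay below each untreated array. The gap was narrow on day 1 (-0.28) and wide on day 2 (-1.17), and the difference with scan day as a term was -0.72 ± 0.26 (limma adjusted p = 0.156). Hdac5 had a value of -0.37 ± 0.16 and was lower by a like amount on both days (-0.36 and -0.39; adjusted p = 0.203), while Hdac7 had 0.25 ± 0.20 (adjusted p = 0.466). The 2 class IIb genes had values of -0.38 for Hdac10 and 0.09 for Hdac6, a cytoplasmic deacetylase of tubulin.

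Sirtuins are NAD-dependent deacylases, of which Sirt1, Sirt6 and Sirt7 act in the nucleus and Sirt3, Sirt4 and Sirt5 in mitochondria. In this class 0 of 7 passed (0 at an unadjusted p below 0.05 in limma). With 1 probe per gene, differences with scan day as a term ran from -0.46 (Sirt2) to 0.28 (Sirt7), with adjusted p-values of 0.206 or more. Outside that range were the other probes of Sirt7 (0.54 ± 0.21, limma adjusted p = 0.189 with each probe fitted singly) and Sirt6 (0.29 ± 0.19). Sirt1, which restrains MyoD-driven transcription, read 1.72, 2.33 and 1.57 after TGFb against 1.09, 1.05 and 2.21. It was higher on day 1 (0.66) and lower on day 2 (-0.26), and its difference was 0.20 ± 0.31 (limma adjusted p = 0.727; 95% interval -0.58 to 0.98).

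Ezh2, the catalytic subunit of the Polycomb complex PRC2 in dividing cells, read 1.98, 2.69 and 1.97 after TGFb and 1.59, 1.60 and 2.87 in untreated cells. The groups overlapped, and the sign differed between the days (0.38 and -0.54). The difference was -0.08 ± 0.31 (limma adjusted p = 0.896), and its 95% interval of -0.85 to 0.69 leaves room for changes of either sign. For Ezh1, the PRC2 subunit of non-dividing cells, the interval was tighter, -0.40 to 0.26, around -0.07; its other 2 probes had values of -0.47 and -0.87 (adjusted p = 0.283 and 0.0825, each probe fitted singly), so the size of any Ezh1 difference depends on the probe.

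Suv39h1 and Suv39h2 trimethylate H3K9 in heterochromatin. Suv39h1 read -0.23, 0.40 and 0.09 after TGFb against -0.50, -0.80 and -0.55, with every TGFb array above every untreated one. The difference was 0.71 ± 0.28 (limma adjusted p = 0.418) with group alone and 0.61 ± 0.19 (adjusted p = 0.116; 95% interval 0.12 to 1.09) with scan day as a term, and it had the same sign within both days (0.42 and 0.80). Suv39h2 had a difference of -0.01 ± 0.20. The H4K20 methyltransferase genes Suv420h1 and Suv420h2 (now Kmt5b and Kmt5c) had values of -0.20 and -0.04, and the 4 probes of Suv420h1 spread from -0.20 to 1.12.

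Of the Setd genes 0 of 8 passed (1 at an unadjusted p below 0.05, limma with scan day), with a range of -0.48 to 0.34. The sign of the class depended on the fit: 7 of 8 values were below 0 with scan day and 3 of 8 with group alone (range -0.94 to 0.44). Setd7, which monomethylates H3K4 and also modifies transcription factors, read 3.29, 3.75 and 4.03 after TGFb and 3.80, 3.85 and 4.32 in untreated cells. It was the lower on both days (-0.53 and -0.43), with a difference of -0.48 ± 0.15 (limma adjusted p = 0.117; 95% interval -0.87 to -0.10). Setd8 (now Kmt5a), the H4K20 monomethyltransferase, had -0.15 ± 0.14 (limma adjusted p = 0.536). Its other probe had -0.56 ± 0.41, outside the range given for the class.

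Apart from Smyd1, 0 of the other 4 Smyd genes passed the limma test. Smyd2 had a difference of -0.31 ± 0.15 that was of the same size on both days (-0.32 and -0.31; limma adjusted p = 0.245). Smyd3, described as a regulator of muscle mass, had 0.31 ± 0.16 (limma adjusted p = 0.297). Its other tested probes had -0.12 ± 0.35 and -0.07 ± 0.24, so its sign depended on the probe.

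For the Kdm demethylases 0 of 14 tested passed (1 at an unadjusted p below 0.05, limma with scan day). With 1 probe per gene, differences ran from -0.50 (Kdm4c) to 0.59 (Kdm2a), 6 below and 8 above 0 (5 and 9 with group alone). Range and sign depended on the probe: another Kdm2a probe had -0.41 ± 0.27. The Kdm5b probes spread from -0.84 to 0.24, with 0.10 for the one used. Kdm6b and Kdm6a remove the H3K27 methyl marks that PRC2 writes. Kdm6b read 2.75, 2.93 and 3.21 after TGFb and 3.19, 3.08 and 3.46 in untreated cells, lower by -0.38 on day 1 and -0.39 on day 2. Its difference of -0.39 ± 0.15 (adjusted p = 0.18; 95% interval -0.77 to 0.00) did not pass, nor did that of Kdm6a, -0.29 ± 0.17 (adjusted p = 0.343). Kdm1a, the H3K4 demethylase LSD1, had 0.00 ± 0.27 (adjusted p = 0.995), with an interval of -0.68 to 0.69 and opposite signs on the 2 days (0.54 and -0.53).

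Prdm genes carry a SET-related domain, and several act as lineage regulators without strong enzyme activity. Prdm1, the repressor Blimp-1, read -2.19, 0.57 and 2.92 after TGFb and -4.52, -4.18 and -0.72 in untreated cells. On each day the TGFb arrays were above the untreated ones, by 2.17 and 2.47, but TGFb replicate 1 on day 1 lay below untreated replicate 3 on day 2. The difference was 3.58 ± 1.56 (limma adjusted p = 0.469) with group alone and 2.32 ± 0.65 (adjusted p = 0.089; 95% interval 0.69 to 3.95) with scan day as a term. It passed when TGFb replicate 2 (2.80, adjusted p = 0.0369) or TGFb replicate 3 (1.79, adjusted p = 0.0251) was left out. Prdm16, a determinant of brown fat that opposes the muscle fate, was well above background on all 3 TGFb arrays and on 1 of 3 untreated arrays, with values of -5.08, -4.09 and -4.94 against -5.43, -7.03 and -4.83. Its size of difference is not given, because 2 untreated arrays did not measure it above background, and it passed in neither the fit with group alone nor that with scan day. The other 7 tested Prdm genes lay between -0.35 and 0.30.

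**Figure D2:**
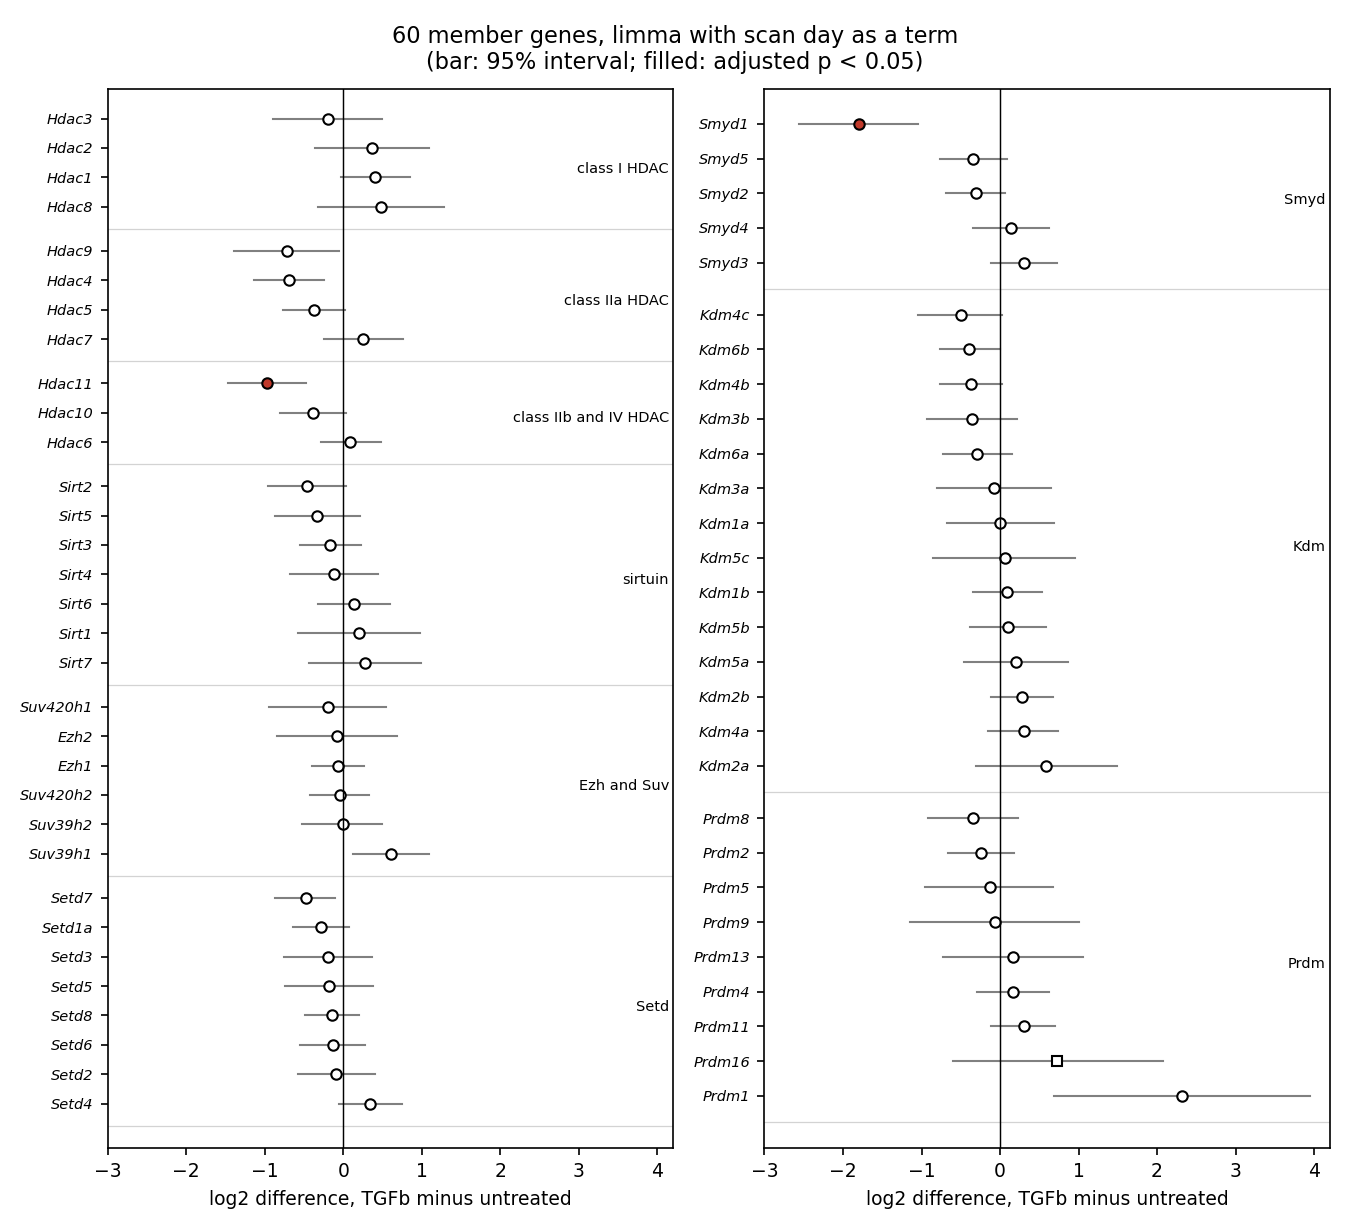
Log2 difference (TGFb minus untreated, horizontal axis) of each of the 60 tested member genes from limma with scan day as a term, grouped by class, with 95% intervals. Filled points passed an adjusted p of 0.05 (Smyd1 and Hdac11), and the square marks Prdm16, which was near background on 2 untreated arrays; the intervals of 52 genes include 0 and those of 47 lie within -1 to 1.

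Over the 60 members the median difference with scan day as a term was -0.08, with 35 below and 25 above 0, beside a median of 0.04 over all genes. With group alone the balance was the other way, a median of 0.21 with 22 below and 38 above 0, again beside 0.04 over all genes. The direction of the set therefore depended on whether scan day was in the fit. In size, 51 of 60 differences with scan day as a term were at most 0.5 and 2 (Smyd1 and Prdm1) were at least 1. The median absolute difference was 0.28, against 0.34 over all genes. Of the members, 47 had a 95% interval within 1 log2 unit of 0, so that 2-fold changes lie outside those intervals; with group alone this was so for 11.

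The 2 scan days share no array, and 37 of 60 members had the same sign of difference on both, against 67.9% of all genes. The groups did not overlap over the 6 arrays in 7 members (11.7%): Setd4 and Suv39h1 were higher after TGFb, and Hdac9, Hdac10, Kdm4b, Sirt2 and Smyd1 were lower. Over all genes this was so for 17.9%.

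**Figure D3:**
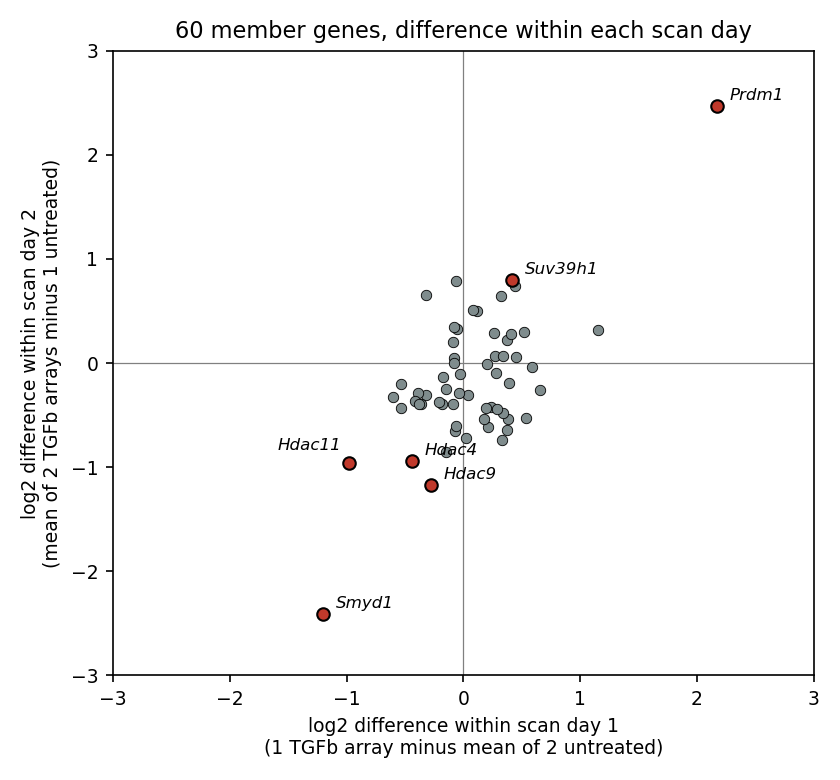
Log2 difference within scan day 1 (1 TGFb array minus the mean of 2 untreated, horizontal axis) and within scan day 2 (mean of 2 TGFb arrays minus 1 untreated, vertical axis), 1 point per tested member gene. Named genes were picked with their values in view, not strictly by distance from 0. Among them, Smyd1 (-1.20 and -2.41), Hdac11 (-0.98 and -0.96) and Prdm1 (2.17 and 2.47) lie away from most of the other members.

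Like most genes on these arrays, most members differed more between scan days than between groups. The arrays of the 2 days did not overlap in 37 of 60 members (61.7%), 32 higher and 5 lower on day 2, beside 57.7% of all genes. The fitted scan-day difference was larger than the group difference in 47 of 60 members and in 71.6% of all genes, and its median size was 0.75 against 0.78 over all genes. The Suv39h2 probe at mm9 chr2:3373186-3373245 read 4.34, 4.48 and 4.36 on the day 1 arrays and 8.24, 8.79 and 8.46 on those of day 2, a difference of 4.10, whereas the other Suv39h2 probe (chr2:3375594-3375653) differed by 0.85. Probes of 1 gene disagreed in sign as well: the 3 Hdac1 probes lie within the same stretch of the gene (mm9, chr4:129193374-129193775) and differed between days by 1.08 (35% GC), -2.61 (45% GC) and -1.02 (46.7% GC). Their TGFb differences with scan day as a term were close to each other, 0.41, 0.25 and 0.32. In all, 8 of the 19 members with more than 1 tested probe had probes of opposite scan-day sign. Across the 86 member probes the scan-day difference had a Pearson correlation of -0.501 with the probe's GC percentage (-0.382 over 30005 probes), and the TGFb difference one of -0.19 (0.00657 over all); probes share arrays and are not independent, so these are descriptions.

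**Figure D4:**
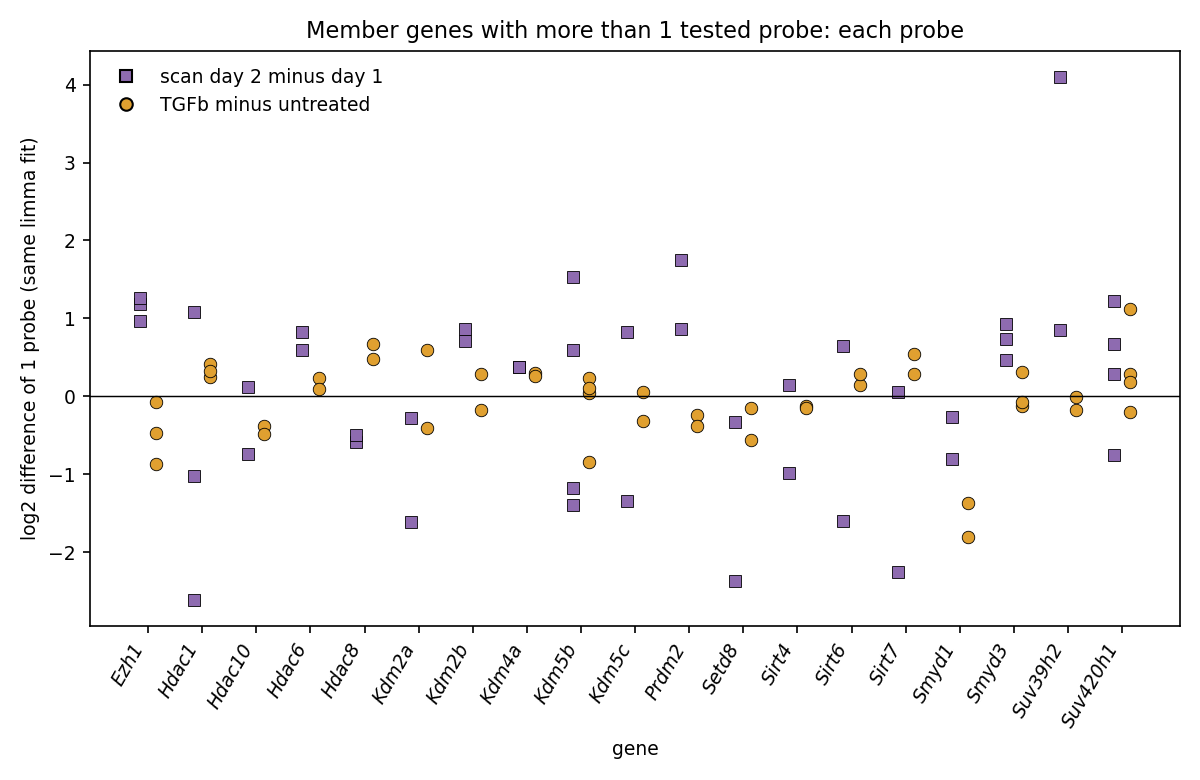
Each tested probe of the 19 member genes with more than 1 tested probe, with the difference between scan days (squares, day 2 minus day 1) and between groups (circles, TGFb minus untreated) from 1 limma fit, in log2 units. Squares of 1 gene spread from below to above 0 in 8 genes, Hdac1 among them (-2.61 to 1.08).

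In the authors' deposited table of normalized log2 values, the scan-day difference of the members was small (median size 0.16, and 0.14 over all genes). Fitted with limma and group alone, that table gave 15.2% of all genes and 5 members (8.33%). Smyd1 (-1.58 ± 0.18, adjusted p = 0.00158), Hdac11 (-1.09 ± 0.27, adjusted p = 0.0365) and Hdac4 (-0.67 ± 0.12, adjusted p = 0.0109) fell in it. Hdac1 (0.50 ± 0.12, adjusted p = 0.0329) and Suv39h1 (0.63 ± 0.15, adjusted p = 0.0302) rose. Prdm1 did not pass there (1.50 ± 0.56, adjusted p = 0.121). The normalization behind that table is not stated in the labels or headers.

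The 7 members that were not tested were Prdm6, Prdm10, Prdm12, Prdm14, Prdm15, Kdm4d and Kdm5d. Prdm10 was well above background on 1 array of each group, Prdm15 on 1 untreated array by 1 of its probes, and the other 5 on no array. Kdm5d (mm9, chrY:277162-277221) read between -7.96 and -7.48 and is the Y-linked member.

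Genes of the complexes and enzymes around these members were read from the same fits, and their unadjusted counts are with scan day. In that fit 5965 of all 21863 genes had an unadjusted p below 0.05. Of 21 tested genes of corepressor complexes that carry HDACs or LSD1, 0 rose and 0 fell in either limma fit (median -0.09; 4 at an unadjusted p below 0.05). The same held for 12 histone acetyltransferases, which oppose the deacetylases (median 0.01; 1 at an unadjusted p below 0.05). It held as well for 22 tested methyltransferases outside the naming rule (median -0.06; 4 at an unadjusted p below 0.05); a further 2, Prmt8 and Mecom, were below background on all arrays. Of 9 PRC2 partners 1 fell in both fits. This was Phf19, a subunit that brings PRC2 to methylated H3K36, which was well above background on all untreated arrays and on no TGFb array. Phf19 was at least 3.76-fold lower (means of -5.70 and -3.34), the bound being the untreated mean over the mean of the lowest well-above-background signals or the probe's own signal on the TGFb arrays. It was kept for testing through the untreated arrays alone, and its TGFb values lay near the lowest signals counted as above background (-5.75 to -5.17). Its call in the 2 fits is therefore no test of the fall, and p-values are not given. Of 8 tested further genes of the demethylase families 1 fell with scan day as a term, Hif1an, the asparagine hydroxylase of HIF (-1.40 ± 0.15, adjusted p = 0.00639), which is related to the JmjC demethylases by fold.

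Muscle differentiation genes differed between the groups. Any relation of their values to those of Smyd1, Hdac11 or the other members was not tested. Of 22 myotube markers 5 fell with group alone and 17 with scan day in the fit, with a median of -1.29 (-1.28 within day 1 and -1.35 within day 2). Tnnc2, a troponin C of fast fibres, fell at -3.16 ± 0.17, and Myh8, a developmental myosin, at -2.45 ± 0.17. Myh4, the myosin of the fastest fibres, fell at -4.83 ± 0.40, and Myh2, a fast-fibre myosin below background on all TGFb arrays, was at least 4.10-fold lower. Myh2 was kept for testing through the untreated arrays alone, so its call among the 17 is no test of the fall. The markers that passed in neither fit were Myh3 (-0.27 ± 0.20), Tnnt1 (-0.14 ± 0.16), Mymx (-0.45 ± 0.18), Myl1 (-0.62 ± 0.20) and Mymk (-1.09 ± 0.24). The summed linear level of the 22 markers, relative to the 75th percentile, was 1420 to 2550 on the TGFb arrays and 2950 to 4350 on the untreated arrays, and no marker's probe set was below background on all arrays. In these bulk cultures, fewer myotubes and less RNA of these genes per cell cannot be told apart, and the part of the markers' fall in the values of Smyd1 or Hdac11 was not tested. Of 10 tested myogenic regulators 3 fell and 1 rose with scan day as a term: Myf6 (-4.14 ± 0.16), Mef2c (-1.74 ± 0.21) and Mef2d (-0.85 ± 0.15) fell and Pax3 rose (0.88 ± 0.14). With group alone Myf6 was the one that passed.

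The other marker lists give the state of the cultures. Of 15 tested proliferation markers 2 fell with scan day as a term, Top2a (-0.74 ± 0.13) and Mki67 (-0.75 ± 0.13), and the median was -0.41, with 7 of 15 at an unadjusted p below 0.05; 0 passed in limma with group alone (0 at an unadjusted p below 0.05). Of 9 tested immediate TGFb targets, 7 rose with scan day in the fit and 2 (Ccn2 and Ldlrad4) with group alone. The matricellular gene Ccn2 rose by 3.00 ± 0.14, the feedback inhibitor Pmepa1 by 2.33 ± 0.17 and Skil, a SMAD corepressor, by 1.20 ± 0.16; no value is given for Ldlrad4, because only 1 untreated array measured it above background. Fibroblast markers were mixed, with Col1a1 (1.80 ± 0.20) and Col1a2 (1.04 ± 0.15) up and Dcn down among 8 tested. No size is given for Dcn, because 1 TGFb array did not measure it above background. Lum and Dpt were below background on all arrays. Of 8 macrophage markers 4 were tested and 0 passed in limma (1 at an unadjusted p below 0.05 with scan day). Cd68 and Lyz2 were below background on all arrays. Itgam (3.95 to 6.85), Csf1r (-0.79 to 0.2) and Cd14 (-4.6 to -3.26) clearly exceeded background on every array. Mrc1 did so on 1 TGFb array and 3 untreated arrays. Of 6 endothelial markers 3 were tested and 0 passed (0 at an unadjusted p below 0.05). Tek, Tie1 and Emcn were below background on all arrays. Kdr (-2 to 1.6) and Pecam1 (-5.03 to -3.59) clearly exceeded it on every array, and Cdh5 on 1 TGFb array and 2 untreated arrays. Which cells gave these signals was not tested.

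The 75th percentile of the processed intensities was 879 to 1578 across arrays, and 51.96% to 56.67% of 59305 non-control spots were well above background. The number of arrays limits the precision.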

How the data were processed

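RNA of 6 samples, 3 per group, was hybridised to 1-colour Agilent arrays. Per the file headers, the spot intensities that the authors deposited come from Agilent Feature Extraction 10.7.3.1, which subtracts background and gives substitute values to spots near it, so dim probes are less certain. The deposited table of normalized log2 values has columns with medians of 7.11 to 7.12 that each match their own array best; how it was normalized is not stated in the labels or headers, and it served as an alternative. Here log2 processed intensity minus each array's 75th percentile over non-control spots was used; outlier spots (176 to 365 per array) were left out and spots of a probe averaged. Probes well above background on at least 3 of 6 arrays were kept, and the probe with the highest mean over arrays stood for its gene. Names outside the members were updated through RefSeq (GRCm38.p6; 26300 probes matched); probe coordinates are mm9. Comparisons used lmFit and eBayes of limma 3.58.1 (R 4.3.3), once with group alone and once with the headers' scan day added; fits were tested on simulated data. The alternatives were slide or replicate as a block, normexp (offset 50), quantile normalization, the deposited table, other filters and moderation, single probes and leaving out each array.

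The members and gene lists were chosen with earlier results of these data known. Members past 0.05 in either fit were named with all values. A set of 23 members, Smyd1 and Hdac11 among them, was named whatever their values. Up to 4 passing genes of each other list were named by smallest p with scan day. Further members named as class extremes were picked with their values in view.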

Additional observations from a re-analysis of the deposited data

How the results depend on the processing

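The count of members that passed moved from 0 with group alone to 2 with scan day as a term, 7 with slide as a random block (2 rose, 5 fell; consensus correlation 0.881) and 5 on the authors' deposited table; with group alone, leaving out each array in turn gave 0 members each time (1 to 8 at an unadjusted p below 0.05 in limma). Slide as a block called Smyd1 (-1.88), Hdac11 (-1.16), Hdac9 (-0.87), Sirt2 (-0.53), Setd7 (-0.52) and Suv39h1 (0.75), and Prdm16, whose size rests on untreated arrays near background. Over all genes the count of 311 became 2244 with scan day as a term, 4327 with slide as a block, 3326 on the deposited table, and 0 to 214 when each array was left out (1467 to 4113 unadjusted). The replicate block gave 0 members (3 at an unadjusted p below 0.05) and 2 genes (2951 unadjusted). With scan day as a term as well, the replicate block gave 0 members (4 unadjusted) and 0 genes (3590 unadjusted). Deviations of same-numbered arrays correlated at 0.81, -0.72 and 0.69 for replicates 1, 2 and 3. Replicates 1 and 3 each share a scan day between the groups and replicate 2 does not, so these values follow the scan layout and cannot show whether the numbers pair cultures; the labels state no pairing. Alternatives joined with scan day, apart from the replicate block and the left-out arrays, were chosen after seeing the data. From 2 members and 2244 genes, they gave 4 and 3441 on the deposited table, 1 and 1322 with no filter on dim probes, and 0 and 0 with the replicate block. Leaving out each array gave 0 to 3 members and 338 to 3349 genes, with 0 members when any untreated replicate was left out. Normexp, quantile normalization, all arrays above background, and trend and robust moderation gave 3 members each, all falls, and single probes gave 2. Hdac4 passed under the first 4 of these (adjusted p = 0.0358, 0.0491, 0.0499 and 0.0405). Of the 22 named members tested, no value past the threshold changed sign, while 23 of 351 values with group alone and 11 of 285 with scan day did so without passing. The cause of these movements was not tested. Dim probes near background, such as Prdm16 and Prdm13, limit the precision of their differences.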
